A study of Mus musculus with 18 samples.

Results

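The genes described here encode the chains of mouse MHC class II molecules, the proteins that load them with peptide, and their transcriptional activator. They were chosen by gene name from a list of 10. Of these, 8 were named in both sets of count tables (H2-Aa, H2-Ab1, H2-Eb1, Cd74, H2-DMa, H2-Oa, H2-Ob and Ciita), among 28374 genes matched between the tables. H2-DMb1 and H2-DMb2 are not analysed here. Ciita lay on chromosome 16, Cd74 on chromosome 18 and the other 6 genes on chromosome 17. RNA-seq was made from splenic CD23+ B cells of female F1 129S1/Cast mice that were Xist+/-, and in all of them the X chromosome of the Cast parent was the inactive one. CD23 is a receptor on mature follicular B cells. One group of 3 samples was naive, with no treatment, and the other group of 3 was stimulated in vitro for 24 h with 1 µM CpG, an oligonucleotide that activates B cells through Toll-like receptor 9. All groups carried the heterozygous Xist allele, and nothing in the labels ties a sample to a separate animal, so p-values measure the spread between these samples, which may be technical. A further 12 samples of the series, titled as B6 B cells and as fibroblasts, are not analysed here.

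Class II molecules present peptides from endosomes to CD4+ T cells. The alpha and beta chains pair in the endoplasmic reticulum with the invariant chain, which Cd74 encodes. In endosomes proteases degrade the invariant chain until a short fragment, CLIP, remains in the groove. H2-DM, made of an alpha and a beta chain, removes CLIP and edits the peptides bound. H2-O, made of the products of H2-Oa and H2-Ob, binds H2-DM and restrains it, and B cells are its best known site of expression. Ciita encodes the coactivator without which class II genes are hardly transcribed. It binds no DNA itself, and is recruited by RFX, CREB and NF-Y proteins at the X and Y boxes of class II promoters.

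Promoter sequence was looked up because 1 coactivator acts on the class II promoters through these boxes. The RefSeq table for assembly GRCm38.p6, the C57BL/6J reference and not either parent strain, held windows for 7 of the 10 listed genes. Ciita, Cd74 and H2-Ab1 had none. In the 250 bases before the start, the letters GNAAC (in the X box) and TGATTGG (which holds the inverted CCAAT of the Y box), separated by 15 to 35 bases, were found in 5 of these genes. The letters were chosen after the members' sequences were seen, both strands were searched, and 0.484% of all 32851 windows held the pair. TGATTGG alone stood in 7.23% of windows. The 4 measured genes with the pair are shown with both motifs in capitals, 5′ to 3′ in the direction of transcription.
H2-Ob: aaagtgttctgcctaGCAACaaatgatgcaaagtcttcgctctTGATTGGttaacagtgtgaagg
H2-Oa: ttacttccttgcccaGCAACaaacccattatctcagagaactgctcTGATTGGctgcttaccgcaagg
H2-Aa: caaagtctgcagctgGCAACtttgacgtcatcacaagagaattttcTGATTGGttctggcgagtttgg
H2-Eb1: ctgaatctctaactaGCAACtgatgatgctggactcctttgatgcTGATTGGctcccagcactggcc
These stretches lie at chr17:34238803-34238867 on the plus strand for H2-Ob, chr17:34092288-34092355 on the plus strand for H2-Oa, chr17:34287852-34287919 on the minus strand for H2-Aa and chr17:34305761-34305827 on the plus strand for H2-Eb1. The motifs stood 23 bases apart in H2-Ob, 26 in H2-Oa and H2-Aa, and 25 in H2-Eb1. Neither window of H2-DMa held TGATTGG. The 4 measured genes with the pair and H2-DMa, without it, all fell with CpG, as given below. Any link of the pair to the fall was not tested.

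Class II genes lost most of their reads with CpG. Together the 8 genes took 5.21% of all gene reads in naive replicate 1 (95% Wilson interval 5.19 to 5.23), 5.44% in replicate 2 (5.42 to 5.46) and 4.97% in replicate 3 (4.95 to 4.99). In the stimulated replicates they took 0.488% (0.482 to 0.493), 0.782% (0.776 to 0.789) and 0.434% (0.429 to 0.439). The group means were 5.20% ± 0.236 and 0.568% ± 0.188 (SD, n = 3 each), and the groups did not overlap. In these bulk samples, fewer cells of a type and less RNA per cell cannot be told apart. Total gene reads over both alleles ranged from 4452339 to 6249989 per sample.

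Each of the 8 genes fell when reads of both alleles were summed (edgeR quasi-likelihood test, Benjamini-Hochberg adjusted p of at most 3.24e-05), and for all 8 every stimulated sample lay below every naive sample. Over all 10343 genes tested, 34.4% fell past the threshold of 0.05 and 37.9% were lower without overlap of the groups. The median log2 fold change of the 8 was -3.11, against -0.011 for all genes tested. In the 129 tables all 8 fell as well (27% of 10581 genes did), and in the Cast tables all 8 did (31.5% of 10365 genes). These 3 fits share reads, so they are not independent of each other.

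Markers of other cells moved with the groups. The summed level of 16 matched macrophage markers, cells that also carry class II, was 3252 to 6647 RPM in naive and 22.4 to 30.5 in stimulated samples. Of these markers 13 were tested and all 13 fell. For this and the other marker lists, the share over all genes tested was 34.4% lower and 34.2% higher. Among the naive samples the macrophage sum was highest in replicate 1, at 6647, and lowest in replicate 2, at 3252. Cd74 had the same order of these replicates, with 7123 and 5999 RPM, and the other 7 class II genes were higher in replicate 2. Dendritic cells are another class II source. Of their 10 matched markers 6 were tested, and 4 fell (Itgax, Siglech, Batf3 and Ccr7) and 2 did not pass (Irf8 and Flt3). Itgax had 85 to 165 reads in naive and 2 to 5 in stimulated samples, and Flt3 had 13 to 48 and 22 to 54 (log2 fold change -0.022, adjusted p = 0.973 by edgeR). Of the 4 markers not tested, Clec9a had 9 to 14 reads and then none, Zbtb46 4 to 11 and 4 to 5, Xcr1 0 to 1 and 1 to 3, and Cd209a none in any sample. The sum over the 10 markers was 1264 to 1621 and 1567 to 1666 RPM, most of it from Irf8, which B cells express too. The B cell markers, 9 of 10 matched, were present in all samples and summed to 7437 to 9412 RPM in naive and 2661 to 3120 in stimulated cells, and all 9 fell. In naive and stimulated samples the sums were 47.9 to 56.0 and 5.56 to 6.80 RPM for T cells, 4.14 to 28.1 and 0 to 0.810 for neutrophils, 27.4 to 59.1 and 0.480 to 0.674 for erythroid cells, and 195 to 347 and 241 to 272 for plasma cells. Of the T cell markers Cd4 had the most reads in naive samples, at 208, 109 and 133, and 0 or 1 after CpG. Each of the other T cell markers had at most 59 reads in any sample. The part of these shifts in the class II result was not tested.

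**Figure D1:**
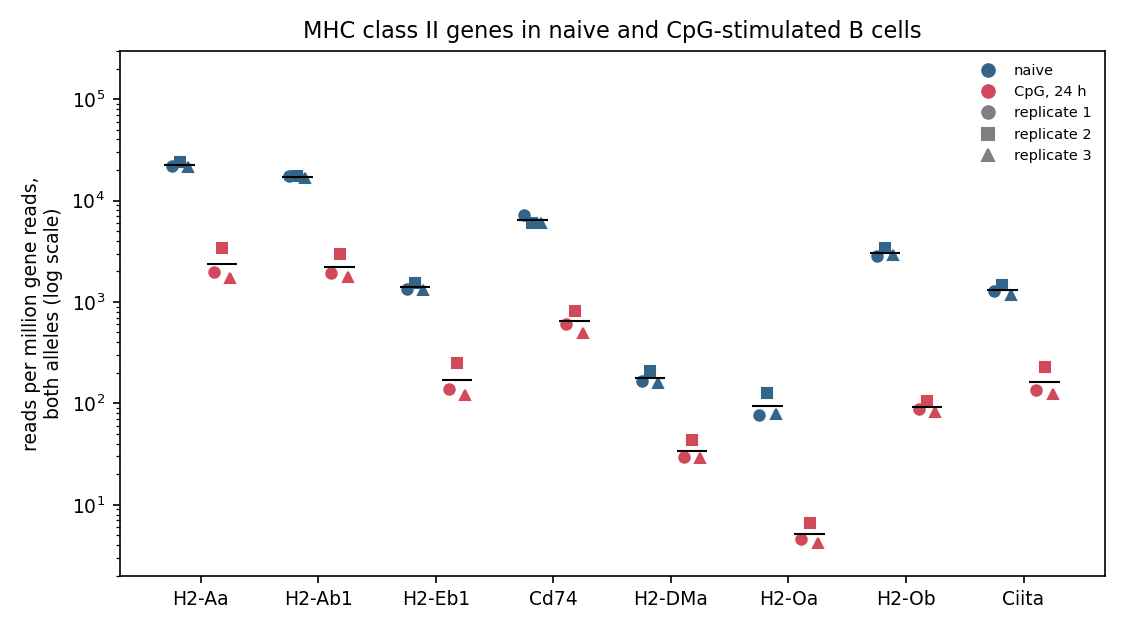
RPM over both alleles (log scale, not divided by gene length, so genes are not to be compared with each other) for 8 class II genes in 3 naive and 3 CpG-stimulated samples; bars mark group means and marker shapes the replicate number. Every stimulated sample lies below every naive sample for each gene, and stimulated replicate 2 is the highest of its group throughout.

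The classical chains and the invariant chain all fell, with fold changes close to each other. H2-Aa, the alpha chain of the I-A molecule, stood at 21937, 24191 and 21350 RPM (reads scaled by the sample's total gene reads, not by gene length) in naive replicates 1, 2 and 3, and at 1959, 3411 and 1737 in the stimulated replicates. Its log2 fold change was -3.21 (SE 0.27, adjusted p = 9.03e-06 by edgeR), a 9.26-fold fall. H2-Ab1, the I-A beta chain, went from 17265, 17452 and 16664 to 1909, 2957 and 1744 RPM. The 3 naive values lay close together, while stimulated replicate 2 stood well above the other 2 of its group. Its log2 fold change was -2.92 (SE 0.22, adjusted p = 2.74e-06 by edgeR).

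H2-Eb1 encodes the beta chain of the I-E molecule. It had 1356, 1521 and 1318 RPM in naive cells and 138, 249 and 122 in stimulated cells, with log2 fold change -3.00 (SE 0.28, adjusted p = 3.24e-05 by edgeR). Cd74, the invariant chain, had 7123, 5999 and 6027 RPM in naive cells and 613, 822 and 495 in stimulated cells, with log2 fold change -3.28 (SE 0.21, adjusted p = 1.20e-06 by edgeR). Naive replicate 1 was the highest for Cd74, unlike for the other 7 genes, for which naive replicate 2 was. The folds of H2-Aa, H2-Ab1, H2-Eb1, Cd74 and Ciita lay within a narrow span, from -3.28 to -2.92, with standard errors of 0.21 to 0.28.

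The peptide editor and its inhibitor had the smallest and the largest fold changes among the 8 genes. H2-DMa, the alpha chain of H2-DM, went from 166, 211 and 160 to 29.8, 43.2 and 29.0 RPM, with log2 fold change -2.36 (SE 0.18, adjusted p = 3.80e-06 by edgeR), a 5.13-fold fall. H2-Oa, the alpha chain of H2-O, went from 76.6, 126 and 77.7 to 4.55, 6.56 and 4.21 RPM. Only 27, 41 and 26 reads stood behind its stimulated values. Its log2 fold change was -4.15 (SE 0.26, adjusted p = 1.25e-06 by edgeR), a 17.7-fold fall.

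H2-Ob, the beta chain of H2-O, went from 2864, 3411 and 2890 RPM in naive cells to 88.8, 105 and 82.3 in stimulated cells. The log2 fold change was -5.02 (SE 0.16, adjusted p = 9.01e-08 by edgeR), a 32.4-fold fall, and it stayed between -5.15 and -4.93 when each sample was left out in turn. On the 129 allele it was -5.11 (SE 0.13) and on the Cast allele -4.95 (SE 0.23).

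**Figure D2:**
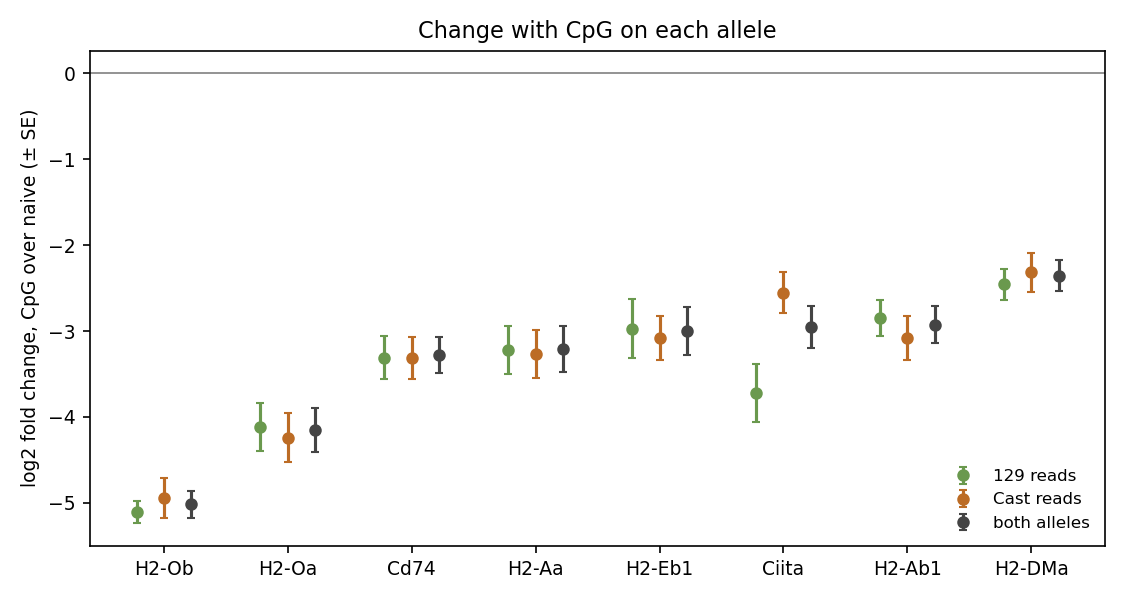
Log2 fold change (CpG over naive, ± SE) of each gene in the 129 tables, in the Cast tables and over both alleles, ordered by the last. H2-Ob lies lowest at -5.02 and H2-DMa highest at -2.36, and for Ciita the 129 value of -3.72 lies apart from the Cast value of -2.55.

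Ratios within a sample need no scaling between libraries, and H2-Ob was compared in this way with H2-Oa and H2-DMa. The log2 ratio of H2-Ob to H2-Oa reads was 5.07 ± 0.26 before and 4.17 ± 0.16 after CpG (SD, n = 3 each). It ranged from 4.76 to 5.22 in naive and from 3.99 to 4.26 in stimulated samples, without overlap, a difference of -0.90, or 1.86-fold. Against H2-DMa the log2 ratio went from 4.10 ± 0.08 to 1.45 ± 0.15 (SD, n = 3 each), a 6.26-fold difference with no overlap. For both pairs the two-sided exact permutation p was 0.1, the smallest that 3 against 3 samples allow, and 0.1 after Benjamini-Hochberg adjustment over the 2 pairs. H2-Ob reads were thus lower relative to both genes in 3 of 3 stimulated samples, by a measure that cannot pass 0.05 with 3 samples a group.

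The same ratio was then taken to the other 5 genes, as a description chosen after the data were seen. The mean ratio was lower after CpG by 3.28-fold for Cd74, 3.35-fold for H2-Aa, 3.84-fold for H2-Eb1, 4.03-fold for Ciita and 4.16-fold for H2-Ab1. In none of these did naive and stimulated samples overlap. H2-Ob fell most among the class II genes measured, so its mean ratio to each other gene, H2-Oa and H2-DMa included, was bound to fall. The ratios restate the fold changes and are no separate result.

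**Figure D3:**
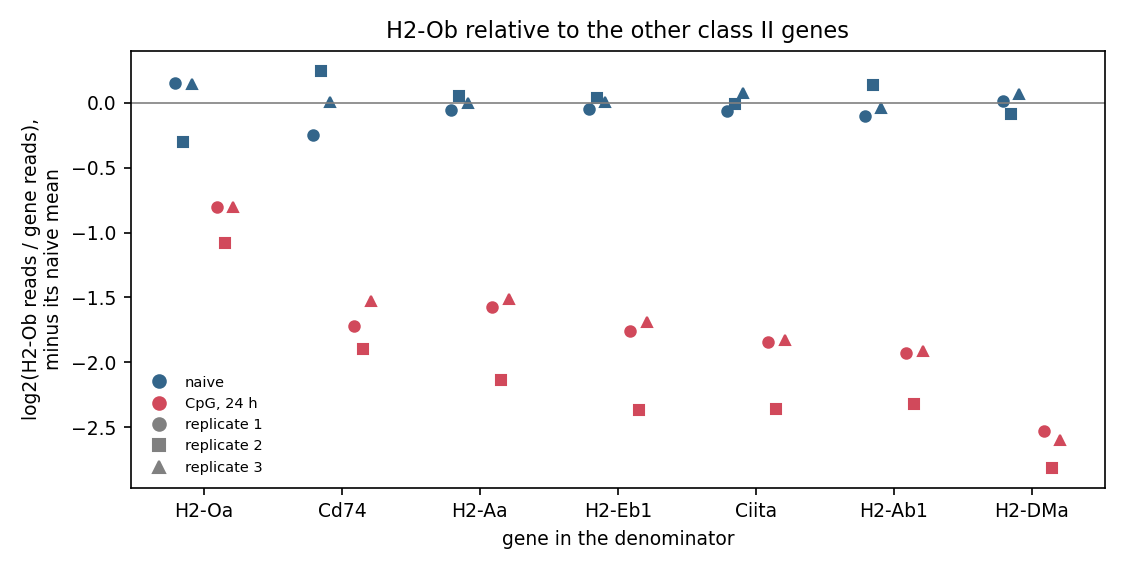
Log2 ratio of H2-Ob reads to the reads of each other class II gene, by sample, with the naive mean of each ratio set to 0. The stimulated samples lie below the naive samples for all 7 genes, by 0.90 for H2-Oa and by 2.65 for H2-DMa on average. These differences restate the fold changes, as H2-Ob fell most among the class II genes measured.

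Ciita, the coactivator, fell from 1276, 1463 and 1171 RPM in naive cells to 136, 231 and 125 in stimulated cells. Over both alleles its log2 fold change was -2.95 (SE 0.25, adjusted p = 1.31e-05 by edgeR). In the 129 tables it was -3.72 (SE 0.33, adjusted p = 1.61e-04 by edgeR) and in the Cast tables -2.55 (SE 0.24, adjusted p = 1.83e-05 by edgeR). The fall was thus 13.2-fold on the 129 allele and 5.87-fold on the Cast allele. For the other 6 genes besides Ciita and H2-Ob the fits on the 129 and the Cast tables lay closer together, at -4.12 and -4.24 for H2-Oa, -3.31 and -3.31 for Cd74, -3.22 and -3.27 for H2-Aa, -2.97 and -3.08 for H2-Eb1, -2.85 and -3.08 for H2-Ab1 and -2.46 and -2.31 for H2-DMa.

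The difference between the alleles of Ciita was tested directly as a change of the Cast to 129 ratio. Of the Ciita reads, the share from Cast was 52.5% in naive replicate 1 (95% Wilson interval 51.3 to 53.7), 55.2% in replicate 2 (54.1 to 56.3) and 52.1% in replicate 3 (50.8 to 53.5). In the stimulated replicates it was 71.9% (68.7 to 74.9), 70.2% (67.8 to 72.5) and 75.7% (72.5 to 78.6). All 3 stimulated samples lay above all 3 naive samples, and the means were 53.3% ± 1.68 and 72.6% ± 2.81 (SD, n = 3 each). The log2 change of the ratio was 1.22 (SE 0.12, adjusted p = 0.00932 by edgeR), and Ciita was the 1 member of 8 that passed, where 0.948% of 10025 matched genes did. That count of 95 genes rested on all 6 samples: the fits that each left out 1 sample called 14 to 26. For Ciita 5 of these 6 fits passed, and without naive replicate 3 the edgeR adjusted p was 0.0570. With the replicate number as a block, 7.62% of genes passed, and Ciita with an edgeR adjusted p of 3.66e-16.

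No other member passed this test. H2-Ab1 went from a Cast share of 47.9% ± 0.404 to 43.5% ± 1.65 (SD, n = 3 each), with no overlap. Its log2 change of the ratio, -0.26 (SE 0.05), missed the threshold (adjusted p = 0.101 by edgeR) and passed with the replicate block (adjusted p = 4.98e-04 by edgeR). H2-Aa shares did not overlap either, at 49.6% ± 0.522 and 48.7% ± 0.304 (SD, n = 3 each), a log2 change of -0.050 (adjusted p = 0.702 by edgeR). For H2-Aa this is close to a tie: the lowest naive and the highest stimulated sample, both replicate 2, were each at 49.0%, with Wilson intervals of 48.7 to 49.3 and 48.3 to 49.7. Shares without overlap were counted in 3 of the 8 members, H2-Aa included, and in 20% of the matched genes tested. For the other 5 members the groups overlapped.

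**Figure D4:**
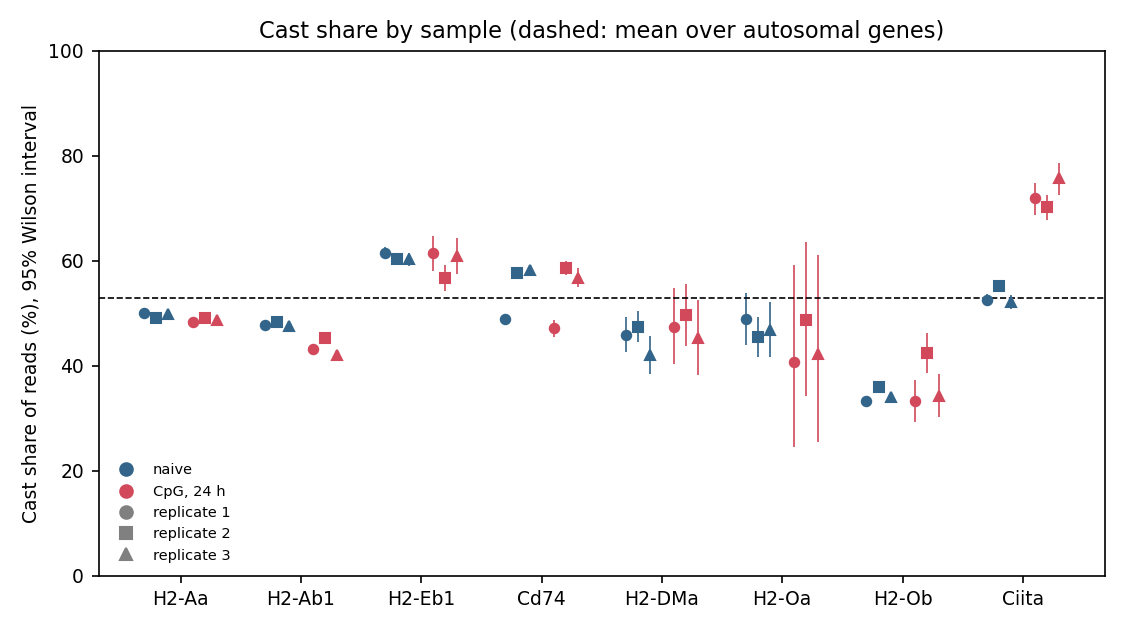
Cast share of the reads of each gene by sample, with 95% Wilson intervals (counting error only); the dashed line is the mean over autosomal genes. Ciita moves from 52.1% to 55.2% in naive samples up to 70.2% to 75.7% after CpG. H2-Eb1 lies above the line in all 6 samples. H2-Ob, H2-Aa, H2-Ab1, H2-DMa and H2-Oa lie below it in all 6 samples, with H2-Ob lowest on average. Replicate 1 of Cd74 lies apart from replicates 2 and 3 in both groups.

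Within a group, allele bias was tested with 1 library size for both alleles, so that a log2 ratio of 0 means equal reads. Over autosomal genes Cast gave 52.7% ± 0.793 of reads before and 52.9% ± 0.812 after CpG (SD, n = 3 each), and the median matched gene had a log2 Cast to 129 ratio of 0.11 and 0.10. H2-Ob leaned to 129: Cast reads made up 34.5% ± 1.38 before and 36.6% ± 5.03 after CpG (SD, n = 3 each). The log2 ratio was -0.93 (SE 0.11, adjusted p = 9.05e-04 by edgeR) in naive and -0.79 (SE 0.11, adjusted p = 0.00198 by edgeR) in stimulated cells. Stimulated replicate 2 stood apart at 42.4%, and the other 5 samples lay between 33.2% and 36.0%.

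H2-Eb1 leaned to Cast, which gave 60.7% ± 0.709 of its reads before and 59.7% ± 2.60 after CpG (SD, n = 3 each). Its log2 ratio was 0.63 (SE 0.07, adjusted p = 3.93e-04 by edgeR) and 0.57 (SE 0.07, adjusted p = 6.82e-04 by edgeR). In naive cells these were the 2 members of 8 called, where 27.5% of matched genes were. In stimulated cells 4 of 8 were called, again with 27.5% of matched genes: H2-Ob and H2-Ab1 toward 129, H2-Eb1 and Ciita toward Cast. H2-Ab1 had a log2 ratio of -0.38 there (SE 0.04, adjusted p = 3.33e-04 by edgeR).

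With the replicate block the allele test called 45.8% of matched genes before CpG and 46.7% after it, and 6 and 5 of the 8 members. It added H2-Ab1 (adjusted p = 0.00672 by edgeR), H2-DMa (0.00994), Ciita (0.00640) and Cd74 (6.44e-08) in naive cells and Cd74 (1.05e-05) in stimulated cells. When each strain's table had its own library size, the median gene moved by -0.12 in naive and by -0.11 in stimulated cells. Of the genes called in naive cells, 55.5% leaned to Cast with 1 library size and 43.4% with separate ones. In stimulated cells the figures were 55.5% and 43.7%. Under that scaling H2-Aa also passed, at -0.14 in naive (adjusted p = 0.00989 by edgeR) and -0.19 in stimulated cells (adjusted p = 0.00236 by edgeR). H2-Ab1 at -0.24 (adjusted p = 0.00576 by edgeR) and H2-DMa at -0.40 (adjusted p = 0.0258 by edgeR) passed in naive cells as well. Neither scaling changed the direction of any of the 8 members in either group.

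The Cast share of Cd74 differed between replicate numbers in both groups. It was 48.8%, 57.7% and 58.3% in naive replicates 1, 2 and 3 and 47.1%, 58.6% and 56.8% in the stimulated replicates of the same numbers. Replicate 1 was thus the low sample in both groups. For each allele alone, RPM were scaled by the gene reads of that strain's own table, not by the sample's total. On this scale the Cast allele of Cd74 was alike in naive cells, at 6526, 6511 and 6343. The 129 allele was higher in replicate 1, at 7805 against 5416 and 5634. These values are not to be compared between the alleles or with the RPM over both alleles. Over replicates the log2 ratio of 0.29 did not pass in naive cells (SE 0.17, adjusted p = 0.279 by edgeR).

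H2-Oa and H2-DMa had shares between 40.7% and 49.6% in the 6 samples. H2-Oa had at most 21 reads per allele in any stimulated sample, and its log2 change of the ratio, -0.16, had an SE of 0.38. How a read was given to a strain, and how reads of near-identical class II copies were counted, is not given in the sources used here, so shares at these polymorphic genes are uncertain as measures of transcription.

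Listed genes near the class II genes on chromosome 17 gave a range for this measure. Of 24 listed neighbours tested, 5 leaned to Cast and 5 to 129 in naive cells, and 14 were not called, with log2 ratios from -5.17 to 6.86. That is 41.7% called, against 27.5% of all matched genes. In stimulated cells 4 leaned to Cast, 7 to 129 and 13 were not called, or 45.8% called. The ratio changed with CpG for 1 of the 24, Wdr46, named after its value was seen. Its Cast share went from 60.3% ± 2.25 to 47.6% ± 1.63 (SD, n = 3 each), a log2 change of -0.74 (SE 0.11, adjusted p = 0.0399 by edgeR), and 0 of the 6 fits that left out 1 sample passed, with adjusted p from 0.0872 to 0.160. The most extreme were Rnf5, a ubiquitin ligase gene, with a Cast share of 99.4% ± 1.05, H2-Ke6 with 2.64% ± 0.685, H2-T23, a nonclassical class I gene, with 10.4% ± 1.12 and Rxrb, a retinoid X receptor gene, with 23.7% ± 0.380 (SD, n = 3, naive cells). The members on chromosome 17, from -0.93 to 0.63 in naive cells, lay inside the range of -5.17 to 6.86. Genes with reads almost all from 1 allele set that range, so lying inside it says little about the members. H2-Eb2, another class II beta gene, leaned to 129 with a log2 ratio of -1.71 (SE 0.17, adjusted p = 3.10e-04 by edgeR).

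Stimulated replicate 2 was the highest of its group for 8 of 8 members on the 129 allele and for 8 of 8 on the Cast allele. Without it the log2 fold change over both alleles was -3.60 for H2-Aa and -3.32 for Ciita, and all 8 genes fell in each of the 6 fits that left out 1 sample. Those 6 fits called 3349 to 3601 genes lower, of 10621 to 10687 tested. With the replicate block all 8 were called too, where 3636 of 10343 genes were called lower.

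Of the regulators of class II transcription, 24 of 25 were tested, and 2 rose, 13 fell and 9 did not pass, with a median log2 fold change of -0.44 (34.2% of all genes rose and 34.4% fell). Irf1, an interferon-regulatory factor that acts on a Ciita promoter, fell by 2.69 on the log2 scale (SE 0.15, adjusted p = 4.65e-07 by edgeR), and Irf2 fell by 1.62 (SE 0.16, adjusted p = 1.84e-05 by edgeR). Prdm1 encodes Blimp-1, a repressor of Ciita in plasma cell differentiation. It had 16, 19 and 4 reads in naive and 102, 145 and 76 in stimulated samples, a rise of 2.76 (SE 0.43, adjusted p = 3.34e-04 by edgeR). The other listed plasma cell markers did not move as 1. Xbp1 rose by 1.04 and Jchain fell by 1.81 (SE 0.32, adjusted p = 0.00175 by edgeR). Sdc1 had 3 to 11 reads in naive and 4 to 7 in stimulated samples, and Tnfrsf17 had 2 to 7 and 0 to 3. Nfyb, a subunit of NF-Y, rose by 0.42 (SE 0.12, adjusted p = 0.00950 by edgeR). The RFX subunits are named after their values were seen: Rfx5 fell by 0.61 and Rfxank fell by 0.41, and Rfxap, at 0.32, did not pass (adjusted p = 0.0618 by edgeR).

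Of 16 processing genes all were tested, and 13 fell and 3 rose, with a median of -1.01 (34.4% of all genes fell and 34.2% rose). Ctsb, a cathepsin abundant in macrophages, fell by 3.34 (SE 0.26, adjusted p = 7.73e-06 by edgeR), from 1639 ± 573 to 159 ± 12.2 RPM (SD, n = 3). Ctse, an aspartic protease of endosomes, fell by 2.55 (SE 0.33, adjusted p = 3.57e-04 by edgeR). Atp6v1a, a subunit of the proton pump that acidifies endosomes, rose by 1.98 (SE 0.11, adjusted p = 6.19e-07 by edgeR), and Cstb, a cathepsin inhibitor, rose by 0.64 (SE 0.12, adjusted p = 0.00117 by edgeR).

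The trafficking and receptor list held 20 names, with March1 and March8 also listed as Marchf1 and Marchf8. None of these March names was matched. Of the list 13 were tested, and 6 rose, 6 fell and 1 did not pass, with a median of 0.058 (34.2% of all genes rose and 34.4% fell). Mif, a cytokine that binds the Cd74 protein, rose by 3.03 (SE 0.13, adjusted p = 1.58e-07 by edgeR), and Cd44, its signalling partner, rose by 2.57 (SE 0.22, adjusted p = 1.14e-05 by edgeR). Cxcr4, a chemokine receptor, fell by 3.57 (SE 0.47, adjusted p = 5.01e-04 by edgeR) and the tetraspanin Cd37 fell by 1.93 (SE 0.13, adjusted p = 1.23e-06 by edgeR). H2-Eb2, the 1 of 5 other class II genes that was matched, fell by 1.66 (SE 0.17, adjusted p = 2.28e-05 by edgeR), from 343, 523 and 355 to 166, 174 and 133 reads.

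**Figure D5:**
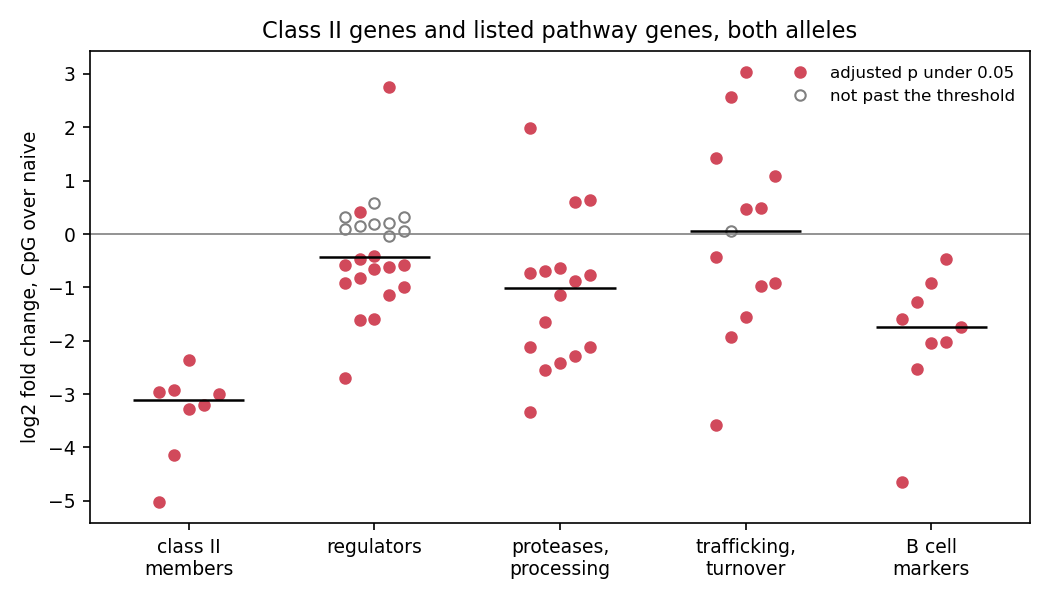
Log2 fold change with CpG over both alleles for the class II genes, 3 listed groups of pathway genes and the B cell markers; filled points passed an adjusted p of 0.05, open points did not, and bars are medians. The class II genes lie between -5.02 and -2.36, with a median of -3.11, and the trafficking genes scatter around 0.058.

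The pattern of H2-Ob over the 12 allele-by-sample values of log2 CPM was most like that of Tspan32 (Pearson's r = 0.997), Hmha1 (0.996) and Il4ra (0.995), out of 8653 other genes tested in both sets of tables. The 12 values share 6 libraries and the contrast between the groups, so r is a description. Tspan32 encodes a tetraspanin, Hmha1 a minor histocompatibility antigen and Il4ra the alpha chain of the interleukin-4 receptor. Their own log2 fold changes were -2.28 (SE 0.11), -2.78 (SE 0.16) and -2.12 (SE 0.13).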

How the data were processed

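The genes and lists were chosen with earlier results of these data known. Each of the 6 samples had 2 deposited tables of raw read counts per gene, 1 on the 129S1/SvImJ and 1 on the CAST/EiJ annotation, per the file headers and identifiers. The submitters' processing notes list STAR, featureCounts, Subread 2.0.0 and mm10, with no roles, while the tables end in rows of the htseq-count format. How reads were given to a strain is not given in the sources used here. A stranded total RNA kit was used, per the labels' protocols.

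Genes were matched by a name used once in each table and by chromosome. Summary rows stayed out. They held, as reads in no annotated gene, between 44.5% and 67.1% of aligned reads. Gene counts were 1987266 to 2928236 per sample in the 129 tables and 2465073 to 3321753 in the Cast tables. Genes without a name took 5.10% to 7.59% of them in the 129 tables and 14.4% to 19.7% in the Cast tables. Such genes were not matched but stayed in the RPM totals. Between libraries of 1 group and strain, chi-square divided by its degrees of freedom was 5.96 to 15.7, so none counted as a repeat. RPM are over all gene reads of the sample, except the values for each allele of Cd74, which are over those of the strain's table.

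edgeR 4.0.16 in R 4.3.3 was used for the quasi-likelihood tests with robust estimation, TMM and filterByExpr, adjusted over all genes tested. Standard errors were derived from the test's p. Allele ratios were fitted over matched genes with a term for each sample. Wilson intervals hold counting error alone: without molecular identifiers, reads need not be separate molecules. Log2 ratios between genes had 0.5 reads added. The tests were checked on simulated data. Alternatives were DESeq2 1.42.0, other scalings and filters, the replicate block and leaving out each sample. All members are named. From each list the 2 largest rises and falls are named, and 4 neighbours by allele ratio. Wdr46 was added after its value was seen.

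Same-numbered naive and stimulated samples deviated together, with correlations of 0.163, 0.146 and 0.197 across 10343 genes. Other pairings gave -0.115 to -0.0410. Values were centred within each group first, so the signs of these correlations depend on each other. Only the replicate block takes the numbers as pairs, from the sample titles and this check. The main tests did not use these pairs. H2-DMb1 and H2-DMb2, which the comparison with H2-Ob was to include, are not analysed here.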

Additional observations from a re-analysis of the deposited data

Results flagged for a closer look

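The change of the Cast to 129 ratio with CpG, which is a test of the difference between the naive and the stimulated group, passed for 3 of the named genes. Over all 10025 matched genes tested, 0.948% passed. Wdr46 was named after its value was seen, so 3 is not a count over a fixed set. Ciita moved toward Cast, by 1.22 on the log2 scale (SE 0.12, adjusted p = 0.00932 by edgeR), in 3 of 3 stimulated samples. It passed in 5 of the 6 fits that left out 1 sample, with an adjusted p of up to 0.0570 by edgeR. Cd44 on chromosome 2, the signalling partner of Cd74, moved toward 129, by -1.42 on the log2 scale (SE 0.19, adjusted p = 0.0339 by edgeR). Its Cast share was 50.8%, 61.3% and 61.9% in naive replicates 1, 2 and 3 and 32.2%, 36.2% and 33.9% in the stimulated replicates. The edgeR adjusted p of Cd44 ranged from 0.00627 to 0.140 when each sample was left out, passing only without naive replicate 1, and was 7.73e-21 with the replicate block. Wdr46, a gene near the class II genes on chromosome 17, moved toward 129, by -0.74 on the log2 scale (SE 0.11, adjusted p = 0.0399 by edgeR). It passed in none of the 6 fits that left out 1 sample, and had an adjusted p of 8.53e-06 with the replicate block.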

How the results depend on the processing

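The fall of the 8 genes with CpG kept its direction and its call in all 33 refits (3 sets of reads under 11 alternatives). The alternatives left the count of genes changed by CpG within 1.5 times. The replicate block, which uses the pairing, moved the allele counts, from 2758 to 4592 genes in naive cells, from 2752 to 4678 in stimulated cells and from 95 to 764 for the change of the ratio. For that change the fits without 1 sample called 14 to 26 genes, and over them the log2 change ran from -0.11 to 0.028 for H2-Eb1, from -0.22 to 0.16 for Cd74 and from -0.047 to 0.24 for H2-Ob, so no direction holds for these. For Wdr46 the change lost its call with separate library sizes, at -0.74 (adjusted p = 0.0590 by edgeR). The cause of this loss was not tested, and that fit used all 6 samples. For the lower counts of 14 to 26 genes the cause was not tested either, beyond 1 sample fewer in each of those fits. Paired by the replicate block, the ratio of H2-Ob to H2-Oa fell by 0.90 and to H2-DMa by 2.65 on the log2 scale, with an exact sign-flip p of 0.25 each, the smallest that 3 pairs allow. The block changed no call of the members other than those given in the report. H2-Oa had the fewest reads of the 8 genes.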
